A study of Danio rerio with 39 samples.

Results

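Larvae collected 5 days after fertilization, the last day sampled, were compared between exposure to the dioxin TCDD (tetrachlorodibenzo-p-dioxin) and its vehicle, dimethyl sulfoxide (DMSO). The comparison took every array labelled TCDD on day 5 and every array labelled DMSO on day 5, 4 of each and 8 of the 39 arrays of the series, and paired them by replicate number. In the TCDD group, zebrafish embryos were exposed to 1 ng/mL TCDD for 1 h between 4 and 5 h post-fertilization, and in the DMSO group to the vehicle alone over the same hour. Both groups came from vials of 15 to 20 embryos in 5 mL, the replicate numbers mark 4 separate experiments, and each array held RNA of pooled whole larvae. The series title places the exposure over days 1 to 5, while the sample protocol and the methods give the single hour. RNA of each pool was labelled with Cy5 and hybridized beside Cy3-labelled RNA of the zebrafish embryonic fibroblast line Zf4, which served as the common reference of all arrays. A level below is the log2 ratio of larval over Zf4 signal, and a change is the difference of such levels between TCDD and DMSO, positive where TCDD was higher.

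TCDD binds the aryl hydrocarbon receptor (AHR), a transcription factor that enters the nucleus, joins its partner ARNT and binds DNA next to genes such as cytochrome P450 1A. Zebrafish carry more than 1 AHR, of which Ahr2 is the one known to mediate TCDD toxicity in the embryo. Fish exposed early in life are known to develop edema, a weakened heart, a shortened jaw and impaired circulation in the days that follow.

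The 8 arrays detected 16994 to 18357 of 21495 probes well above background in the larval channel and 16711 to 18908 in the reference channel, and 44 to 77 spots were saturated in the larval channel. Of 21490 probes tested, 1075 were higher in TCDD (5%) and 862 lower (4.01%), 9.01% in all, at an adjusted p under 0.05, the rule behind each call below. Median centring of the arrays moved the share of higher calls to 66.0%, against 55.5% in the deposited scaling. Over the 8749 named genes tested, each taken by its brightest probe, 586 were called higher (6.7%) and 341 lower (3.9%), 10.6% in all, and the median change of all genes was 0.00. At least 2-fold changes were found in 69 of the genes called higher and in 18 of those called lower. Counts of list members called below are to be read against the 6.7% and 3.9% of all genes. A lack of overlap between the groups is to be read against the 12.9% of all genes whose ratios did not overlap. Of the called probes, 1834 (94.7%) changed in the same direction in all 4 pairs, and 1855 did so in pairs 1, 2 and 4. The arrays within each of these pairs shared a scan batch, while those of pair 3 fell in different scan batches. Calls rest on the mean of these same pair differences, so the agreement follows in part from the selection. It tests neither reproducibility nor an effect of scan batch. The calls draw on the spread over all 39 arrays. A fit of the 8 arrays alone with the pairs as a block called 1 probe higher and 0 lower, and 3457 probes had an unadjusted p under 0.05 there.

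The pairs differed in the size of the response. Probes called higher had median differences of 0.51, 0.29, 0.47 and 0.69 in pairs 1 to 4, and probes called lower of −0.54, −0.42, −0.45 and −0.54. Among the 67 genes called higher by at least 2-fold with a value in every pair, pair 2 had the smallest rise in 53 and pair 4 the greatest in 36. Fits were also run with 1 replicate number left out on all 5 days, and each is called below a fit without that pair. Such a fit thus also lost arrays of days 1 to 4, and with them part of the spread behind the calls. The fit without pair 4 called 233 probes higher and 244 lower, and that without pair 3 called 448 and 354. That without pair 1 called 606 and 444, while leaving out pair 2 left 788 and 542.

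The AHR pathway list held 12 measured genes, of which 5 rose and 1 fell, with a median change of 0.46 over the list. Without pair 4, 3 rose and 1 fell. *cyp1a*, the cytochrome P450 that metabolizes planar aromatic compounds and the standard reporter of AHR activity, had log2 ratios of 9.72, 9.22, 10.24 and 9.48 on TCDD arrays 1 to 4, against 3.76, 3.87, 4.16 and 4.02 on DMSO arrays 1 to 4. The change of 5.72 ± 0.52 (SE) was the greatest of any named gene called on day 5 (52.6-fold, adjusted p = 5.15e-05), and the exact two-sided permutation test over the 8 arrays, which ignores the pairs, gave p = 0.0286, the smallest that 4 against 4 allows. Exact sign changes within the 4 pairs gave p = 0.125, the smallest that 4 pairs allow. The spot was saturated on 1 TCDD array. *ahr2*, the receptor gene itself, had log2 ratios of 0.52, 0.00, 0.33 and 0.56 with TCDD and of −0.41, −0.84, −0.58 and −0.51 with DMSO, so that every TCDD array lay above every DMSO array (change 0.94 ± 0.10, adjusted p = 0.000257). Its second probe changed by 0.51. In bulk RNA of whole larvae, more cells of a type and more RNA per cell cannot be told apart, here and in the results below.

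The other AHR genes that rose did so by less than 2-fold. *foxq1b*, a forkhead transcription factor known as a TCDD-responsive gene in zebrafish, held between 0.34 and 0.45 on the TCDD arrays and between −0.60 and −0.41 on the DMSO arrays, a change of 0.84 ± 0.13 (adjusted p = 0.00104). The aldehyde dehydrogenase *aldh3b1* rose by 0.77 ± 0.14 (adjusted p = 0.00296) and the quinone reductase *nqo1* by 0.46 ± 0.08 (adjusted p = 0.00219), both without overlap between the groups, and a second *aldh3b1* probe at 0.35 was not called. *arnt2*, an ARNT family partner of the receptor, fell by 0.62 ± 0.09 on 1 of its 3 probes (adjusted p = 0.000816), while the other 2 changed by −0.20 and −0.00 and were not called, and the first belongs to the group of probes around *mtf1* described below. The remaining members were not called. They include *nfe2l2a*, which encodes the antioxidant regulator Nrf2 (−0.46, adjusted p = 0.0773), *sox9b*, a cartilage and heart regulator known to fall with TCDD in the jaw (0.01), *aip*, a chaperone partner of the receptor (0.04), the P450 gene *cyp1d1* (0.15), *ugt1ab*, a glucuronosyltransferase (0.45), and the transporter *slc16a9a* (1.01, adjusted p = 0.402). In the larval channel alone, which leaves out the reference, 7 of the 12 were called higher, *ugt1ab* and *slc16a9a* among them.

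**Figure D1:**
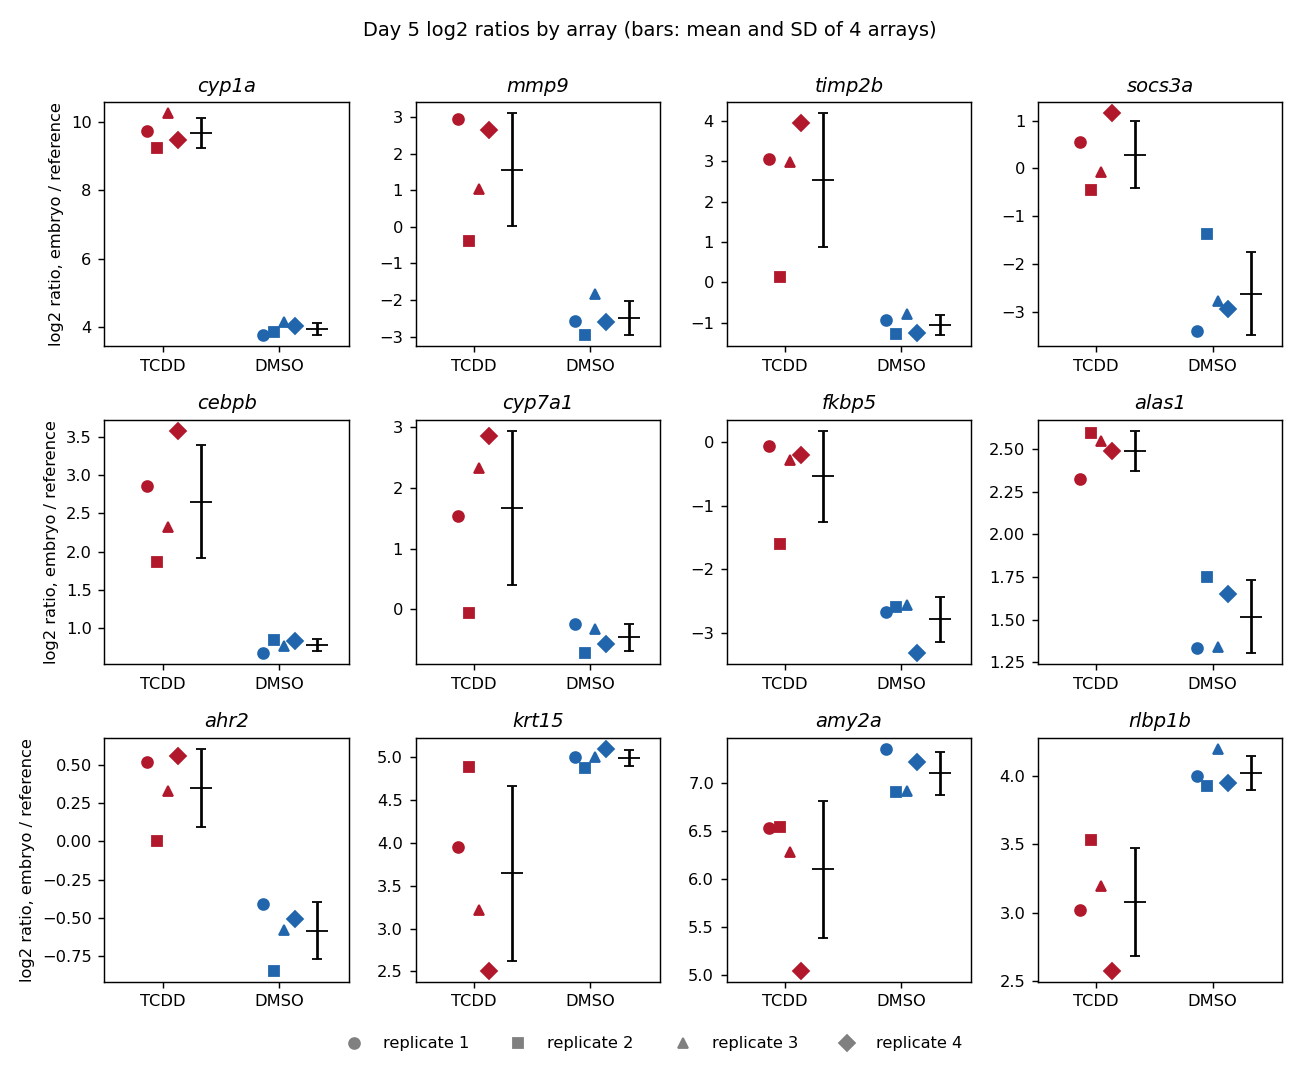
Log2 ratio of larval over Zf4 reference signal (vertical axis) of 12 genes on the 4 TCDD arrays (left) and the 4 DMSO arrays (right) of day 5, with the mean and SD beside the points and 1 marker shape per replicate. The TCDD arrays lie above all DMSO arrays for the 9 genes that rose, *cyp1a* between 9.22 and 10.24 against 3.76 to 4.16, and the TCDD array of replicate 2 is the lowest of its group for *mmp9*, *timp2b*, *cyp7a1* and *fkbp5*.

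Genes of inflammation and of neutrophils leaned higher in TCDD. Of 24 measured, 12 rose and 0 fell, with a median change of 0.77, and at least 8 rose when any 1 pair was left out. *mmp9*, a gelatinase released by neutrophils and macrophages and made by damaged epithelium, had log2 ratios of 2.94, −0.38, 1.04 and 2.65 with TCDD and of −2.58, −2.97, −1.84 and −2.59 with DMSO. It rose by 4.05 ± 0.62 (16.6-fold, adjusted p = 0.00105), and its second probe changed by 3.69. The collagenase *mmp13a* ran from 1.61 to 4.29 on the TCDD arrays and from −0.05 to 0.73 on the DMSO arrays (change 2.82 ± 0.42, adjusted p = 0.000898). The groups did not overlap for either protease, nor for *timp2b*, an inhibitor of matrix metalloproteinases, with log2 ratios of 3.06, 0.12, 2.98 and 3.94 with TCDD and of −0.93, −1.28, −0.78 and −1.27 with DMSO (change 3.59 ± 0.45, adjusted p = 0.000497). The larval channel alone gave 4.13 for *mmp9*, 2.86 for *mmp13a* and 3.50 for *timp2b*.

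The neutrophil peroxidase *mpx* was well above background on all 4 TCDD arrays and on no DMSO array, with larval signals of 447, 240, 178 and 523 with TCDD and of 101, 85.4, 54.8 and 46.8 with DMSO. Set against the background level, its signal was at least 4.02-fold higher with TCDD. The adjusted p of 0.000657 belongs to the fitted ratio and does not test this bound. Of the other 4 leukocyte markers, *lcp1*, the leukocyte plastin, rose by 0.74 ± 0.15 (adjusted p = 0.00475), while the lysozyme gene *lyz* (−0.12), the coronin gene *coro1a* (0.33) and the myeloid transcription factor *spi1b* (−0.30) were not called. Summed over these 5 markers, the larval signal was 0.0228% to 0.0301% of that of all genes on the TCDD arrays and 0.0199% to 0.0232% on the DMSO arrays, with overlap, and none of the 5 was at background on all 8 arrays. Whether a change in leukocyte number contributes to the rise of *mmp9* was not tested.

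*socs3a* and *socs3b*, 2 zebrafish copies of the feedback inhibitor of JAK and STAT signalling, changed by 2.91 ± 0.40 (adjusted p = 0.000725) and by 2.35 ± 0.30 (adjusted p = 0.000497). For *socs3a*, TCDD arrays held 0.54, −0.45, −0.08 and 1.15, and DMSO arrays −3.40, −1.38, −2.76 and −2.94. *cebpb*, a transcription factor of the acute phase, had log2 ratios of 2.85, 1.86, 2.32 and 3.58 with TCDD and of 0.68, 0.84, 0.77 and 0.83 with DMSO (change 1.87 ± 0.22, adjusted p = 0.000288). In all 3 genes the lowest TCDD array was that of replicate 2, and it still lay above every DMSO array. Of 18 MHC and antigen presentation genes, 3 rose (16.7%) and 1 fell (5.6%), against 6.7% and 3.9% of all genes. The median was 0.03, and the number that rose was 2, 3, 1 and 0 as pairs 1 to 4 were left out. Those that rose include the interferon regulatory factors *irf1b* (1.27 ± 0.25, adjusted p = 0.00495) and *irf8* (0.97 ± 0.25, adjusted p = 0.022). *tnfrsf1a*, a receptor of tumor necrosis factor, rose by 1.19 ± 0.25 (adjusted p = 0.00746), although its other probes ran from 0.04 to 0.68.

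Complement genes had 2 of 13 higher (15.4%) and 0 lower, against 6.7% and 3.9% of all genes. *cfb*, complement factor B of the alternative pathway, rose by 2.86 ± 0.56 (adjusted p = 0.00469), with 7.22, 6.39, 9.98 and 6.96 on TCDD arrays and 5.19, 4.95, 3.98 and 4.99 on DMSO arrays. *c8a*, a subunit of the membrane attack complex, rose by 0.81 ± 0.18 (adjusted p = 0.00901), with overlap between the groups because the array of replicate 3 was the highest in both. The Zf4 reference was well above background on 6 of 8 arrays for both genes, and the larval channel alone gave 2.25 and 0.63. The mannose-binding lectin *mbl2* was called higher by 1.57 ± 0.39 (adjusted p = 0.0185) with a reference above background on 1 of 4 TCDD arrays, and its larval channel alone changed by −0.06.

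The immediate early genes of the AP-1 family, bZIP factors and related genes induced within minutes of a stimulus, had 12 of 23 members higher and 0 lower, with a median of 0.29. The count was 7 without pair 1 and 6 without pair 4. *junba* changed by 1.91 ± 0.32 over the 3 pairs left after an outlier spot on the DMSO array of replicate 3 was set to missing (adjusted p = 0.00311), with TCDD arrays between −2.57 and −0.90 and DMSO arrays between −3.60 and −3.42. *fosab* held 2.27, 3.13, 1.88 and 3.05 with TCDD against 0.51, 2.08, 0.52 and 0.87 with DMSO, so that the DMSO array of replicate 2 exceeded 1 TCDD array (change 1.59 ± 0.26, adjusted p = 0.00154), and its second probe changed by 0.22. *atf3*, a stress-induced member, rose by 1.63 ± 0.35 (adjusted p = 0.00886), although the TCDD array of replicate 2 (−2.10) lay within the DMSO range of −2.41 to −2.06.

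Genes known to respond to glucocorticoids rose in 10 of 21 cases, with 0 lower and a median of 0.59 (6 rose without pair 4). The gene lists share members: *cebpb* and *fosab*, given above, are on this list, and *fkbp5* is also on the chaperonin and heat shock list. *fkbp5*, a co-chaperone of the glucocorticoid receptor, had log2 ratios of −0.07, −1.6, −0.29 and −0.21 with TCDD and of −2.67, −2.60, −2.57 and −3.31 with DMSO. Its change of 2.25 ± 0.29 (4.74-fold, adjusted p = 0.000497) was close to the larval channel's 2.09. *ddit4*, an inhibitor of mTOR that also appears among hypoxia genes, rose by 1.24 ± 0.36 in 3 of 4 pairs (adjusted p = 0.0433), while in pair 3 the TCDD array held 1.53 against 1.6 with DMSO. *igfbp1a*, a binding protein of insulin-like growth factors known to rise with hypoxia and stress, held between 2.72 and 3.96 with TCDD and between 1.36 and 1.88 with DMSO (change 1.73 ± 0.32, adjusted p = 0.00303).

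Hypoxia genes showed 8 of 20 higher and 2 lower, a median of 0.46, and counts of 3 higher without pair 1 and 1 without pair 4. *egln3*, a prolyl hydroxylase that marks hypoxia-inducible factors for degradation, rose by 1.64 ± 0.44 (adjusted p = 0.0296) and the glycolytic regulator *pfkfb3* by 1.14 ± 0.31 (adjusted p = 0.0296). Of the 28 glycolysis genes, 4 rose (14.3%) and 1 fell (3.6%), against 6.7% and 3.9% of all genes. There were 2 higher and 0 lower without pair 1, and 0 higher and 0 lower without pair 4. Hexokinase 2 (*hk2*) changed by 0.68 ± 0.13 (adjusted p = 0.00305), with TCDD arrays at −2.16, −2.99, −2.19 and −2.13 and DMSO arrays between −3.24 and −2.93, the array of replicate 2 alone overlapping. The lactate dehydrogenase gene *ldhbb* rose by 0.73 ± 0.14 (adjusted p = 0.00406), again with the lowest TCDD array in replicate 2 (4.33 against 4.82 to 4.84 in the other TCDD arrays).

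Endoplasmic reticulum stress genes, which encode folding enzymes and sensors of unfolded protein, had 12 of 22 higher and 0 lower (median 0.37), but 7 without pair 3 and 2 without pair 4. *trib3*, a pseudokinase induced by the integrated stress response, held 0.00, −0.57, −0.37 and 0.24 with TCDD against −1.06, −0.96, −1.12 and −1.09 with DMSO (change 0.88 ± 0.12, adjusted p = 0.000775). The oxidase *ero1a* rose by 0.98 ± 0.22 (adjusted p = 0.00971), *creld2* by 0.81 ± 0.16 (adjusted p = 0.00461), the disulfide isomerase *pdia4* by 0.73 ± 0.14 (adjusted p = 0.00411) and the reticulum chaperone *hsp90b1* by 0.69 ± 0.13 (adjusted p = 0.00314), all without overlap between the groups, although a second *pdia4* probe at 0.36 was not called. Cytosolic chaperonin and heat shock genes split, with 13 of 75 higher and 5 lower, and leaving out any 1 pair left 1 lower and leaving out pair 4 left 4 higher.

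Of the p53 and apoptosis genes, 12 of 48 rose and 0 fell, with 6 higher without pair 3 and 3 without pair 4. *mcl1b*, an anti-apoptotic BCL2 relative, held 0.87, 0.46, 0.67 and 1.35 with TCDD and −0.66, −0.17, −0.62 and −0.62 with DMSO (change 1.36 ± 0.21, adjusted p = 0.0014). The growth arrest gene *gadd45bb* rose by 1.18 ± 0.20 (adjusted p = 0.00196) and *gadd45aa* by 1.00 ± 0.21 (adjusted p = 0.00746), and a second *gadd45aa* probe changed by 0.16. The rises thus took in an inhibitor of cell death beside genes of growth arrest.

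Antioxidant enzyme genes had 8 of 41 higher and 0 lower, with 3 higher without pair 1, 3 without pair 3 and 0 without pair 4. *txnb*, a thioredoxin, rose by 1.05 ± 0.20 (adjusted p = 0.00369), the glutathione peroxidase *gpx1b* by 0.74 ± 0.18 (adjusted p = 0.0203) and *gclm*, the regulatory subunit of the enzyme that starts glutathione synthesis, by 0.52 ± 0.13 (adjusted p = 0.0163), with a second *gclm* probe at 0.26 not called. The list of P450 and conjugation genes, *cyp1a* included, had 8 of 47 higher and 2 lower, and 5 higher without pair 4. *sult2st1*, a cytosolic sulfotransferase, held 1.62, 1.16, 1.72 and 1.63 with TCDD and 0.64, 0.66, 0.95 and 0.64 with DMSO, a change of 0.81 ± 0.07 (adjusted p = 5.15e-05). *cyp26a1*, which degrades retinoic acid, rose by 0.84 ± 0.15 (adjusted p = 0.00223). Among 8 heme synthesis genes, 2 rose (1 without pair 3 or pair 4) and 0 fell, led by *alas1*, the first and rate-limiting enzyme outside the red cell. Its log2 ratios were 2.33, 2.59, 2.55 and 2.49 with TCDD and 1.33, 1.75, 1.34 and 1.65 with DMSO, and the change of 0.97 ± 0.08 (adjusted p = 4.11e-05) came from differences of 0.99, 0.84, 1.21 and 0.84 in pairs 1 to 4.

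Genes of liver plasma proteins had 9 of 51 members higher and 0 lower, with a median of 0.16, and 4 higher without pair 1 and 4 without pair 3. *agt*, angiotensinogen, held 8.47, 6.98, 8.54 and 8.38 with TCDD and 5.78, 6.39, 6.19 and 7.05 with DMSO, with overlap (change 1.74 ± 0.35, adjusted p = 0.00542). Its reference was well above background on 1 of 4 TCDD and 1 of 4 DMSO arrays, and its larval channel alone changed by 1.39. The fibrinogen chain *fgg* rose by 1.49 ± 0.33 (adjusted p = 0.0104), *fgb* by 0.66 ± 0.14 (adjusted p = 0.00839) and the copper carrier ceruloplasmin (*cp*) by 1.07 ± 0.22 (adjusted p = 0.00564). For *fgg* the reference was well above background on 3 of 4 TCDD and 2 of 4 DMSO arrays, and the larval channel alone gave 1.38. Of the other liver markers, *fabp10a*, a liver fatty acid binding protein (−0.20), *tfa*, transferrin (0.33), and *rbp4*, the retinol carrier (0.16), were not called. The 4 measured liver markers together took 0.681% to 0.894% of the larval signal with TCDD and 0.664% to 0.751% with DMSO, with overlap. *cyp7a1*, the rate-limiting enzyme of bile acid synthesis, had log2 ratios of 1.54, −0.06, 2.33 and 2.86 with TCDD and of −0.24, −0.72, −0.33 and −0.57 with DMSO (change 2.13 ± 0.31, adjusted p = 0.000842). *cyp51*, an enzyme of cholesterol synthesis, rose by 0.62 ± 0.09 (adjusted p = 0.000791) with overlap between the groups.

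Genes of the actin cytoskeleton had 19 of 60 members higher and 2 lower, with a median of 0.22. Without pair 1 the count was 8 higher, and without pair 3 or pair 4 it was 5, and none was lower without pair 2, 3 or 4. The transgelin *tagln2* rose by 0.86 ± 0.12 (adjusted p = 0.000791) and the calponin *cnn2* by 0.82 ± 0.13 (adjusted p = 0.00128), with overlap in neither, although a second *tagln2* probe changed by 0.19. The membrane-binding annexins *anxa2a* (0.97 ± 0.13, adjusted p = 0.000578) and *anxa1b* (0.93 ± 0.17, adjusted p = 0.00276) rose as well. The larval channel alone gave 1.07 for *anxa2a* and 0.49 for *anxa1b*, the latter without a call. In the epithelium, 5 of 35 claudin and junction genes rose and 2 fell, with 3 higher without pair 1, 0 without pair 3 and 1 without pair 4. *cldni*, a claudin, rose by 0.98 ± 0.17 (adjusted p = 0.00189) and *cdh1*, E-cadherin, by 0.93 ± 0.25 over the 3 pairs with a value (adjusted p = 0.0289).

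Of 13 keratins, the intermediate filaments of epithelia, 2 rose (15.4%), 1 fell (7.7%) and 10 were not called, against 6.7% and 3.9% of all genes. As pairs 1 to 4 were left out, 1, 2, 1 and 0 rose and 0, 1, 0 and 0 fell. *krt18b* (0.40 ± 0.09, adjusted p = 0.0074) and *krt18a.1* (0.54 ± 0.14, adjusted p = 0.0266) rose. *krt15*, by contrast, held 3.95, 4.89, 3.22 and 2.51 with TCDD and 5.00, 4.87, 4.99 and 5.1 with DMSO. Its fall of 1.35 on the log2 scale (SE 0.31, adjusted p = 0.0116) was carried by pairs 1, 3 and 4, and in pair 2 the difference was 0.02.

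**Figure D2:**
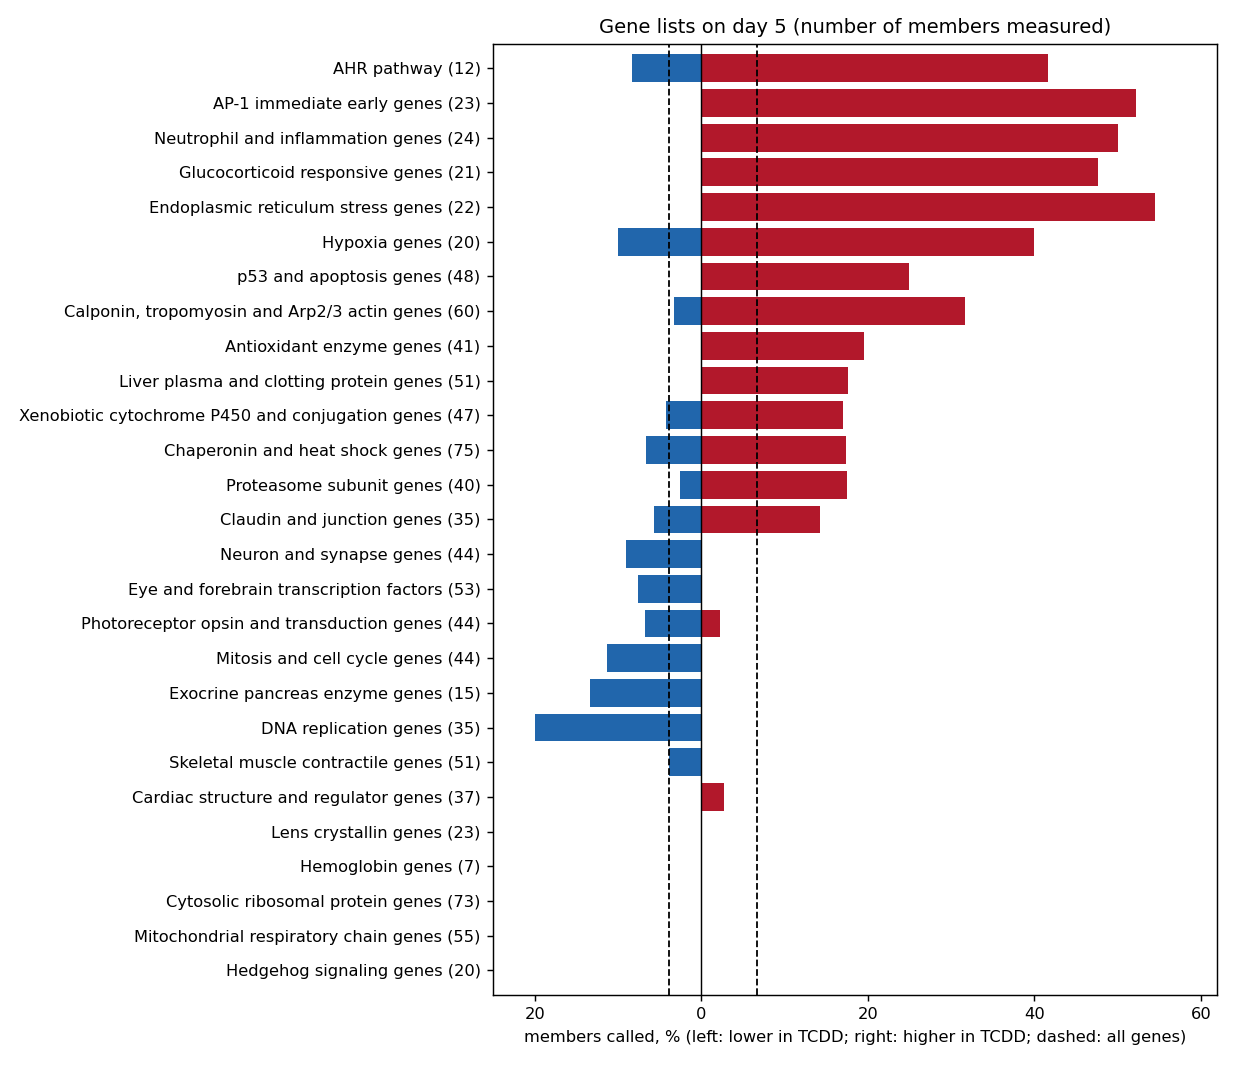
Share of the measured members of 27 gene lists that were called higher (to the right of 0) or lower (to the left) in TCDD on day 5, in percent, with the number of members measured in brackets and dashed lines at the shares of all genes, 6.7% higher and 3.9% lower. Stress, inflammation and AHR lists lie to the right of the dashed line, DNA replication to the left, and hemoglobin, ribosomal, respiratory chain, crystallin and hedgehog genes have no called member.

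Genes of DNA replication leaned lower in TCDD. All 35 measured DNA replication genes had a change below 0, with a median of −0.24, but only 7 of them were called lower, and the number called was 2, 4, 1 and 0 when pairs 1 to 4 were left out in turn. The helicase subunit *mcm3*, part of the ring that unwinds DNA at the fork, held −2.64, −2.46, −2.67 and −3.11 with TCDD and −2.13, −2.0, −2.26 and −2.38 with DMSO, so that the groups did not overlap (change −0.53 ± 0.12, adjusted p = 0.0138). Its partners *mcm4* (−0.44 ± 0.10, adjusted p = 0.0133) and *mcm5* (−0.59 ± 0.16, adjusted p = 0.0352) fell, and *gmnn*, geminin, which blocks a second loading of the helicase, fell by 0.51 (log2, adjusted p = 0.0363). Of the mitosis and cell cycle genes, 5 of 44 fell and 0 rose, with 2 without pair 1, 2 without pair 3 and 1 without pair 4. *aurkb*, the Aurora B kinase of the chromosomal passenger complex, held between −1.78 and −1.15 with TCDD and between −0.93 and −0.76 with DMSO (change −0.58 ± 0.10, adjusted p = 0.00195). The checkpoint kinase *chek1* fell by 0.47 (log2, adjusted p = 0.00293), with overlap and with a second probe at −0.07.

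In the eye and nervous system several lists leaned downward. Glia and myelin genes were an exception in calls, with 2 of 18 higher (11.1%, against 6.7% of all genes) and 0 lower. Their median was −0.19, and 1 was higher without pair 1, 3 or 4. Lower calls took 6.8% of photoreceptor genes, 7.5% of eye and forebrain factors and 9.1% of neuron and synapse genes, against 3.9% of all genes. Photoreceptor genes had 3 of 44 lower and 1 higher, but 35 of the 44 changes were below 0 (median −0.33), and the pair medians were −0.24, −0.24, −0.20 and −0.87. *pde6a*, the rod phosphodiesterase subunit, held 1.63, 1.84, 1.53 and 0.92 with TCDD and 2.7, 2.11, 2.57 and 2.18 with DMSO (change −0.91 ± 0.18, adjusted p = 0.00533). *rlbp1b*, a retinaldehyde carrier of the visual cycle, fell by 0.94 on the log2 scale (SE 0.19, adjusted p = 0.00573), with no TCDD array above 3.53 and no DMSO array below 3.92. The green-sensitive opsin *opn1mw4* fell by 0.43 (log2, adjusted p = 0.000885) with a second probe at −0.15 not called, and the ultraviolet opsin *opn1sw1* was not called (−0.88 ± 0.39, adjusted p = 0.193). The 1 member that rose was *aanat2*, the pineal enzyme of melatonin synthesis (0.80 ± 0.13, adjusted p = 0.00154), whose second probe changed by −0.05. The calls lower in this list numbered 2, 4, 2 and 1 as pairs 1 to 4 were left out.

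Among eye and forebrain transcription factors, 4 of 53 fell and 0 rose, with 1 each without pairs 1, 3 and 4. The list's medians in pairs 1 to 4 were −0.07, −0.10, −0.16 and −0.47. *pax6a* (−0.44 ± 0.11, adjusted p = 0.024) and *pax6b* (−0.58 ± 0.16, adjusted p = 0.0274), the zebrafish forms of the master regulator of eye development, fell without overlap, although the other 2 *pax6a* probes, at −0.29 and −0.10, were not called. *nr2f2*, a nuclear receptor, held between 0.28 and 0.72 with TCDD and between 1.03 and 1.27 with DMSO (change −0.67 ± 0.09, adjusted p = 0.000775), although its second probe changed by −0.11. Of 44 neuron and synapse genes, 4 fell and 0 rose, with 2 without pair 1 and 1 each without pairs 3 and 4. The neural tubulin *tubb5* fell by 0.70 (log2, adjusted p = 0.00377), with other probes at −0.74 and −0.08, and *robo2*, a receptor that guides axons, by 0.54 (adjusted p = 0.0199). No crystallin was called among 23 (2 lower without pair 1), although 19 changes were below 0.

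Exocrine pancreas enzymes had 2 of 15 lower and 0 higher (median −0.47), and 0 lower when any of pairs 1, 3 and 4 was left out. Amylase, *amy2a*, held 6.53, 6.54, 6.29 and 5.05 with TCDD and 7.36, 6.91, 6.92 and 7.22 with DMSO (change −1.0 ± 0.24, adjusted p = 0.0167), and its second probe changed by −1.08. *ctrb.1*, a chymotrypsinogen, fell by 0.59 (log2, adjusted p = 0.0311) with overlap, and its other probes changed by 0.03 and 0.27. Trypsinogen *prss1*, saturated on all DMSO arrays, gives no fold (0.01). The larval channel alone called 7 of the 15 lower. The uncharacterized gene *zgc:92590*, which the probe annotation describes as similar to trypsinogen, held 1.56, 3.26, 1.01 and 1.11 with TCDD and 3.41, 3.63, 3.02 and 3.88 with DMSO, so that replicate 2 alone overlapped (change −1.75 ± 0.32, adjusted p = 0.00313). In the larval channel it changed by −2.14, and its other probes changed by −1.31 and −0.24 without a call.

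The vascular list had 3 of 38 lower and 1 higher, against 3.9% and 6.7% of all genes, with 2, 2, 1 and 2 lower and 0, 1, 0 and 0 higher as pairs 1 to 4 were left out. *cxcl12a*, the chemokine that guides migrating cells, held −2.42, −2.07, −1.55 and −2.04 with TCDD and −1.33, −1.32, −1.0 and −0.87 with DMSO, without overlap (change −0.89 ± 0.13, adjusted p = 0.000791). *notch3*, a receptor of mural cells, fell by 0.84 (log2, adjusted p = 0.0277), while its larval channel alone changed by −0.29.

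Several systems held few or no called genes. None of the 7 hemoglobin genes and none of the 17 other red cell genes was called, with *hbae1.1* at 0.19 ± 0.19 and *hbae3* at 0.24 ± 0.15. The larval channel alone called *hbae3* higher, 1 hemoglobin gene lower and 1 of the other red cell genes higher. On the TCDD array of replicate 3, *hbae1.1* held 8.29, against 6.54 to 6.93 on the other TCDD arrays. None of 73 cytosolic ribosomal protein genes (median −0.02) and none of 55 respiratory chain genes (median −0.02) was called. *rpl7a* and *rps27a* were saturated on all 8 arrays and gave no measured change, while the respiratory chain genes *cox4i1* (−0.06) and *atp5mc3b* (−0.12) were not saturated. Hedgehog genes had 0 of 20 called, *gli3* and *sufu* included (−0.21 and 0.04). Over all genes 10.6% were called, and 0 calls among 7, 17 or 20 genes lies near that share. At an unadjusted p under 0.05, 22.5% of all probes passed.

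Few heart genes were called. Of 37 genes of cardiac structure and regulation, 1 rose (2.7%) and 0 fell, against 6.7% and 3.9% of all genes. *myl7*, the cardiac myosin light chain, held 4.85, 4.97, 4.1 and 4.92 with TCDD and 6.86, 4.91, 7.34 and 5.04 with DMSO, which left it uncalled (−1.33 ± 0.50, adjusted p = 0.122). Its reference was well above background on 5 of the 8 arrays. In the larval channel alone *myl7* changed by −0.85 and was called lower (adjusted p = 0.0011), as were 4 other cardiac genes. Of the phosphofructokinase genes of muscle, *pfkma* was not called (−0.40 ± 0.30) and *pfkmb* was not well above background on any array.

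The marker lists of 14 cell types were also summed in the larval channel. The labels describe whole embryos, and each list had a measured marker above background. The summed larval signal of 5 lists took a smaller share of that of all genes on every TCDD array than on any DMSO array: heart muscle with 0.00327% to 0.00466% against 0.006% to 0.00827%, photoreceptor with 0.177% to 0.293% against 0.337% to 0.38%, exocrine pancreas with 0.425% to 0.808% against 0.918% to 1.00%, lens with 0.0684% to 0.0828% against 0.0934% to 0.115%, and neuron with 0.0659% to 0.0785% against 0.0895% to 0.0976%. In the ratio, none of the members of these 5 lists was called. The median of the 3 exocrine pancreas markers (0.01) was the value of *prss1*, which gives no fold, and *cpa5* changed by −0.23. The exocrine pancreas sum included *prss1*, which was saturated on all DMSO arrays. Its marker *cpa5*, a carboxypeptidase that was not saturated, gave 43987 of 717464 on TCDD array 1 and 65510 of 773778 on DMSO array 1. The lens sum was mostly that of a single crystallin. It gave 58962 of 64022 on TCDD array 1 and 81051 of 85833 on DMSO array 1. The ratio of that crystallin changed by −0.12, and the larval channel alone called no lens marker. The other 9 lists overlapped between the groups, and none was higher on every TCDD array. Of the 52 gene lists, which share members with the marker lists, 6 had a smaller share on every TCDD array, 13 a greater one and 33 overlapped. Over all genes, 12.9% had log2 ratios without overlap between the groups. That is another measure than these shares of summed signal, for which no share over all genes was computed. What part the number of cells of each type has in the calls above was not tested.

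**Figure D3:**
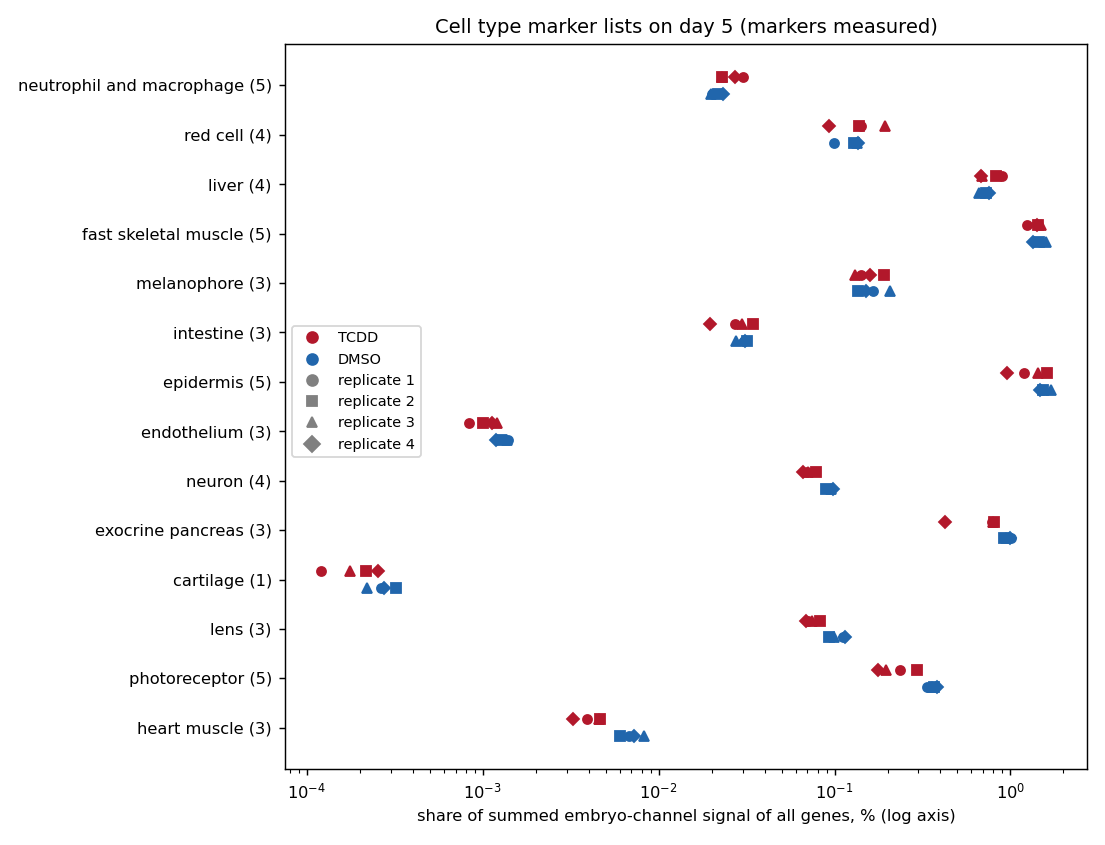
Share of the summed larval-channel signal of all genes taken by the markers of 14 cell types (horizontal axis, percent, logarithmic), with the 4 TCDD arrays above the 4 DMSO arrays of each type, marker shapes for replicates and the number of markers measured in brackets. Heart muscle, photoreceptor, lens, exocrine pancreas and neuron markers lie lower on every TCDD array than on any DMSO array, and the other 9 types overlap.

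Every level is a ratio to the Zf4 channel, which was dim for some genes, and the larval channel alone is given for comparison. Both channels were well above background on all 8 arrays for 872 of the 927 called genes. Of the 1075 probes called higher, 676 were also called higher in the larval channel alone. Of the 862 called lower, 475 were also called lower there. Of the 15 greatest rises with the same sign in every pair, all 15 were called higher in the larval channel alone, and 10 had a reference above background on all 8 arrays. Among them, *zgc:76926*, an uncharacterized gene, was above background on the 4 TCDD arrays (larval signal 2329, 487, 2365 and 1309.5). It was so on no DMSO array (111, 79.1, 43.4 and 102), and its signal was at least 18.6-fold higher with TCDD. Its adjusted p of 0.000176 is that of the fitted ratio, not of the bound. *ms4a17a.5*, a member of the MS4A family of membrane proteins, rose by 2.33 ± 0.26 (adjusted p = 0.000257) with 2.27 in the larval channel. The changes of *dnaaf6*, a factor for assembly of ciliary dynein arms (2.68 ± 0.51, adjusted p = 0.00353), and of *mst1*, a liver-derived growth factor (2.02 ± 0.53, adjusted p = 0.0265), came to only 0.71 and 0.81 in the larval channel.

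The 15 greatest falls read differently: 13 had a reference that was not well above background on all 8 arrays, and 3 were called lower in the larval channel alone (*fhl5*, *zgc:92590* and *pnp6*). *amph*, amphiphysin of synaptic vesicle recycling, held 4.1, 5.35, 2.00 and 5.16 with TCDD and 9.51, 6.18, 5.21 and 6.21 with DMSO, a change of −2.62 ± 0.58 (adjusted p = 0.00935). Its reference signal was 118, 54.0, 419 and 49.3 on the TCDD arrays and below 47 on the DMSO arrays, and the larval channel alone changed by −0.77 without a call. *mitfa*, the melanophore master regulator (−2.39, larval channel −0.09), *syn2a*, a synapsin (−2.13, larval channel −0.42), and *rbpms2b*, an RNA-binding protein (−2.16, larval channel −0.56), likewise changed less in that channel, and the other probes of *mitfa* (−1.0 and 0.91) and of *rbpms2b* (−0.43 to 0.01) were not called lower. *fhl5*, a LIM-domain protein, stands apart from them, with larval signals of 454, 747, 269 and 144 with TCDD and of 1328, 1875, 1449.6 and 1646 with DMSO (change −2.35 ± 0.60, larval channel −2.18, adjusted p = 0.0224 for the ratio). *or42e3*, an odorant receptor, and *ak5*, an adenylate kinase, were above background on no array in the larval channel. *lrrc10*, a cardiac leucine-rich repeat protein, was above background there on 1 TCDD array and on no DMSO array, and *wu:fc48h01* on no TCDD array and 1 DMSO array, so that the fitted values of these 4 genes are not measured falls. The others of the 15 were *pnp6*, a purine nucleoside phosphorylase (−2.07), *irx5b*, a homeobox factor (−2.02), *aqp10a*, an aquaporin (−1.76), *zgc:63863* (−1.77, with a second probe at 0.92), and a gene known only by a clone identifier (−1.13).

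**Figure D4:**
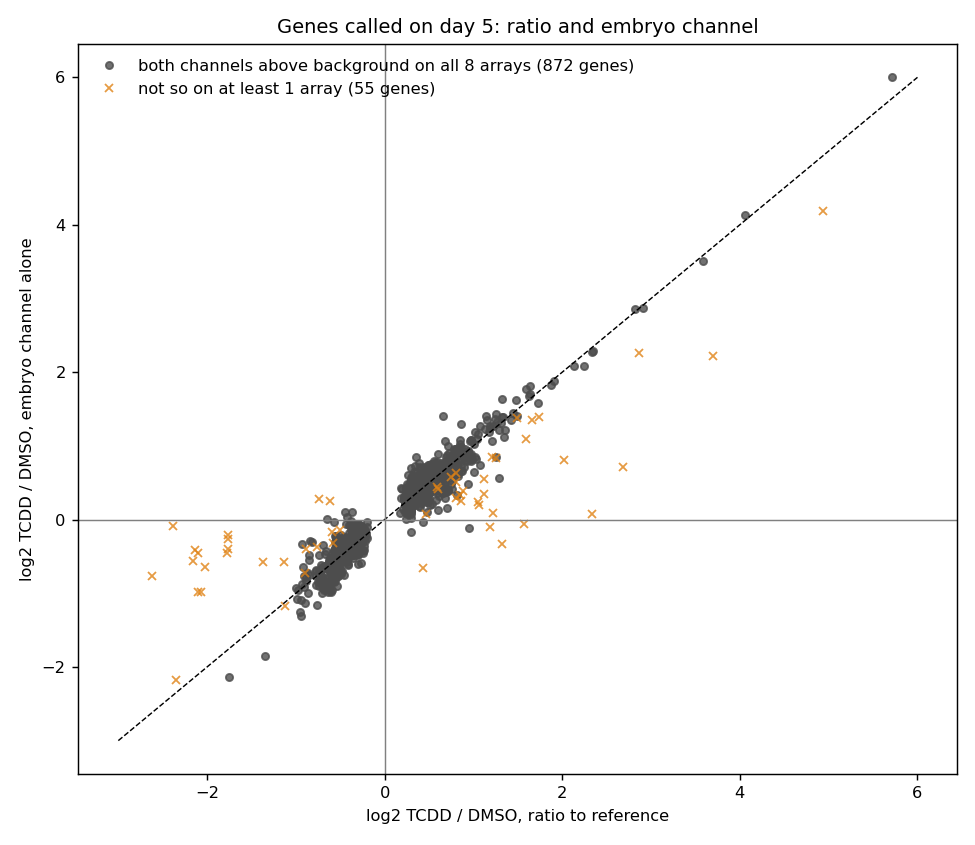
Change of the 927 named genes called on day 5 in the ratio to the Zf4 reference (horizontal axis, log2 TCDD over DMSO) against the change in the larval channel alone (vertical axis, log2), with a dashed line of equality. The 872 genes with both channels well above background on all 8 arrays (circles) follow the line, and many of the other 55 genes (crosses) lie between it and 0, most of the greatest falls among them.

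A second set of falls was picked by likeness to 1 gene. The log2 ratios of 81 probes, 30 named genes among them, correlated with that of *mtf1*, the metal-responsive transcription factor, at r over 0.9 across the 39 arrays, as a description of arrays that share reference RNA. The day 5 arrays were among the 39 and *mtf1* was taken for its fall, so the direction of the set follows from how it was picked and is a description only. The 81, all called lower on day 5, made up 9.40% of the lower calls, with changes between −1.04 and −0.30 and a median of −0.68. Their median change was −0.34, −0.62, −0.71 and −0.62 on days 1 to 4, so the fall was not particular to day 5. *mtf1* itself held −0.38, −0.64, −1.16 and −0.41 with TCDD and 0.39, 0.39, −0.01 and 0.47 with DMSO (change −0.96 ± 0.13, adjusted p = 0.000669). The set includes *arnt2*, *esr1*, an estrogen receptor (−0.70 ± 0.11, adjusted p = 0.00134), the citrate carrier *slc25a1a* (−0.74 ± 0.10), the Wnt receptor *fzd6* (−0.68 ± 0.14), the endothelial factor *sox7* (−0.62 ± 0.12, with a second probe at 0.19) and the fatty acid elongase *elovl5* (−0.62 ± 0.10), with r between 0.91 and 0.95. The median larval signal of the 81 probes was 1936, 2006, 742 and 2063 on TCDD arrays 1 to 4 and 2668, 3261, 2122 and 3349 on DMSO arrays, and their median reference signal was 2780, 2971, 1254 and 2974 with TCDD and 2576, 3008, 2412 and 2806 with DMSO. Both channels were thus dimmest on the TCDD array of replicate 3, whereas the pair medians of the ratio were alike at −0.66, −0.74, −0.70 and −0.62. What these probes have in common was not tested.

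Day 5 was last set against days 1 to 4, for which the TCDD effect was fitted on separate arrays. The day 5 effect differed from the mean of the 4 earlier effects in 97 of 8745 genes (1.11%), 84 of them with a more positive effect on day 5 (0.961%) and 13 with a more negative one (0.149%). This count depended on which replicates were fitted. Over all probes it was 171, and it was 0 without pair 1, 201 without pair 2, 0 without pair 3 and 1 without pair 4. These fits leave out arrays on both sides of the contrast. At an unadjusted p under 0.05 for this contrast, 3209 probes passed in the full fit, and 2875, 3178, 2210 and 2171 without pairs 1 to 4. *cyp1a* changed by 4.31, 6.46, 6.61 and 6.31 on days 1 to 4, and its day 5 effect of 5.72 did not differ from their mean by more than the error (−0.21 ± 0.59, adjusted p = 0.907). *ahr2* changed by 0.03, 0.41, 0.53 and 0.81 on these days (difference 0.49 ± 0.12, adjusted p = 0.0613).

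Genes of inflammation and stress were among those with the greatest positive difference. *zgc:76926*, above background on no DMSO array of day 5, had a fitted difference of 4.68 ± 0.58 (adjusted p = 0.00917), *timp2b* of 3.54 ± 0.51 (adjusted p = 0.0109) and *mmp9* of 3.38 ± 0.70 (adjusted p = 0.0385). *timp2b* changed by −0.33, −0.31, 0.37 and 0.46 on days 1 to 4 and *mmp9* by −0.08, 0.16, 1.42 and 1.2, so that neither approached its day 5 level earlier. *fkbp5* changed by 0.04, −0.97, 0.00 and 0.90 on the earlier days (difference 2.25 ± 0.32, adjusted p = 0.0109), *cyp7a1* by 0.04, −0.14, −0.35 and 0.68 (difference 2.07 ± 0.35, adjusted p = 0.0164) and *socs3a* by −0.03, −0.22, 0.54 and 1.1 (difference 2.57 ± 0.45, adjusted p = 0.0192). *alas1* had a smaller difference of 0.65 ± 0.09 (adjusted p = 0.0103) after 0.70 on day 4. Also called were *slc25a25a*, a mitochondrial ATP-Mg and phosphate carrier (1.33 ± 0.20 on day 5, adjusted p = 0.000894), and the Wnt inhibitor *wif1* (0.78 ± 0.09 on day 5, adjusted p = 0.00024), with differences of 1.21 and 0.48.

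**Figure D5:**
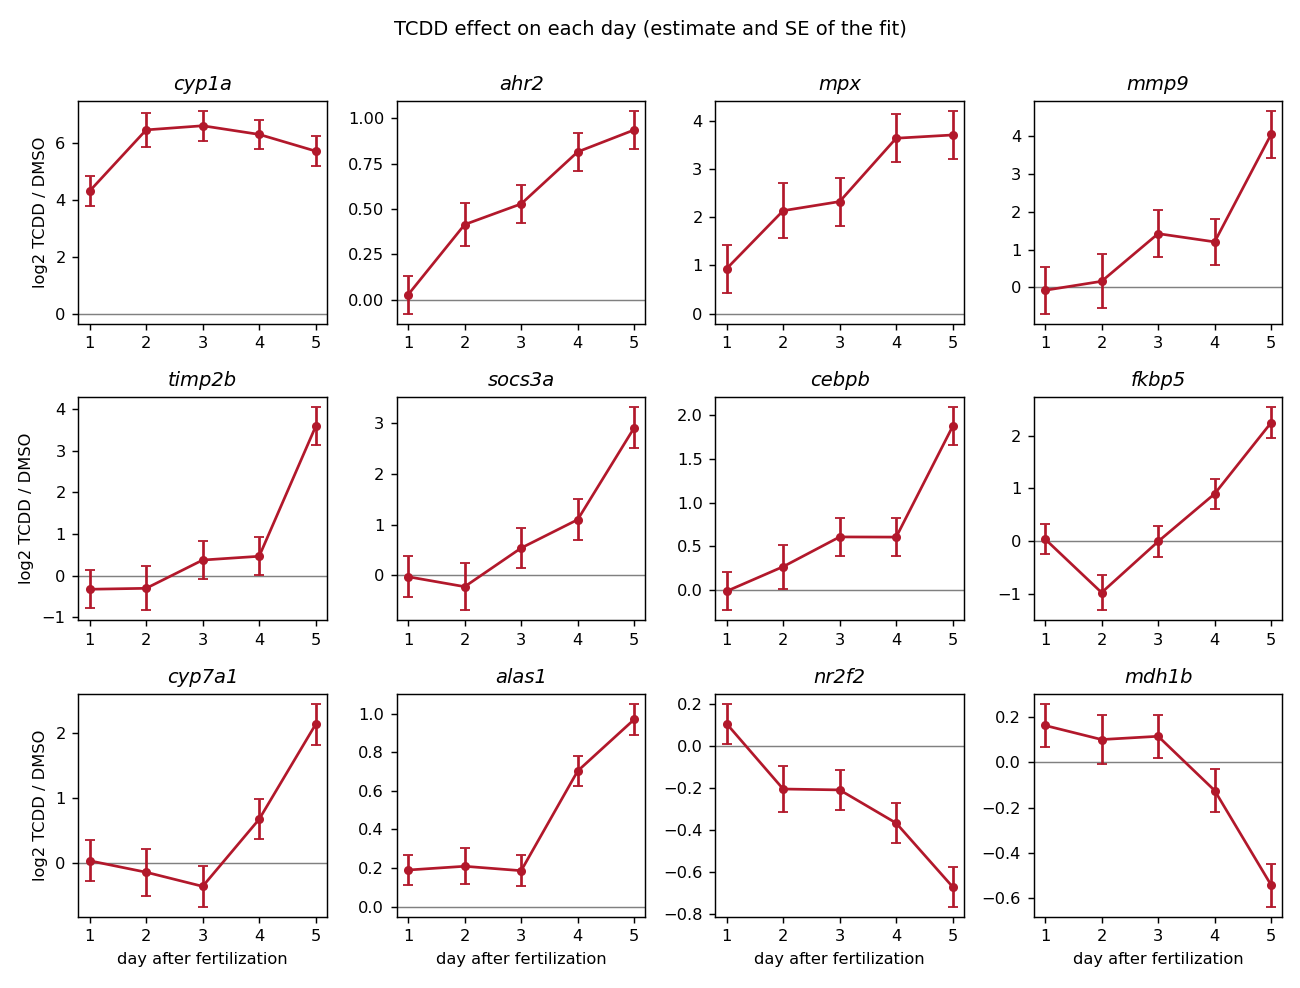
TCDD effect (log2 TCDD over DMSO, vertical axis, estimate and SE of the fit) on days 1 to 5 after fertilization for 12 genes. *cyp1a* is high on every day, *ahr2* has greater values on later days, the values of *mpx* are fitted to DMSO arrays that were below background on day 5, *mmp9*, *timp2b*, *socs3a*, *fkbp5* and *cyp7a1* reach 2.13 or more on day 5 only, and *nr2f2* and *mdh1b* are at their lowest on day 5.

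Fewer genes had a more negative effect on day 5. Among the 8 with the greatest negative difference, *pnp6*, *or42e3* and *ak5* had a dim reference or no larval signal over background, as given above. *fkbp11*, a prolyl isomerase of the secretory pathway, changed by −0.21, 0.12, 0.02 and −0.18 on days 1 to 4 and by −0.69 ± 0.12 on day 5 (adjusted p = 0.00251), although its second probe changed by 0.07. *mdh1b*, a malate dehydrogenase, changed by 0.16, 0.10, 0.12 and −0.12 on the earlier days and by −0.54 ± 0.10 on day 5 (adjusted p = 0.00234). *nr2f2* differed from its earlier mean by −0.50 ± 0.11 (adjusted p = 0.0409) and *pbldp*, a phenazine biosynthesis-like protein gene, by −0.54 ± 0.11 (adjusted p = 0.0385).

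The medians of 5 lists show how the effect ran over the days. The median change of inflammation genes was −0.01, 0.08, 0.22 and 0.38 on days 1 to 4 and 0.77 on day 5, that of endoplasmic reticulum stress genes 0.02, 0.06, 0.01 and 0.10 and then 0.37, and that of actin genes 0.02, 0.03, 0.00 and 0.04 and then 0.22. DNA replication genes had medians of 0.05, 0.05, 0.00 and −0.07 before the −0.24 of day 5, and photoreceptor genes −0.03, 0.07, −0.14 and −0.33, the last of these equal to day 5. Other lists ran otherwise. The median of P450 and conjugation genes was 0.24 on day 3 and 0.03 on day 5, that of glycolysis genes 0.12 and 0.02 on these days, that of antioxidant genes 0.11 on day 3, 0.12 on day 4 and 0.06 on day 5, and that of crystallins −0.37 on day 4 and −0.30 on day 5. The difference of a list between days was not tested.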

How the data were processed

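Whole-larva RNA (Cy5) was hybridized against Zf4 reference RNA (Cy3) on 22K Agilent zebrafish arrays, and the methods name the dyes only as Cy3 or Cy5, while the labels give Cy5 for the larvae on every array. The authors deposited Agilent Feature Extraction 8.1.1 output, per the file headers with background subtraction, spatial detrending and dye normalization within each array. Its deposited values used here are the log10 ratio of red over green and the intensity of each channel. No normalization between arrays had been applied.

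Ratios were turned to log2, outlier spots and 1080 control spots were left out, and limma 3.58.1 (R 4.3.3) was fitted to all 39 arrays with 1 term per pair of TCDD and DMSO arrays and 1 TCDD effect per day. Probes with a Benjamini-Hochberg adjusted p under 0.05 over all probes were called, and a second contrast set day 5 against the mean of days 1 to 4. The pairs come from the design, in which a replicate number is 1 experiment. The deviations of same-numbered day 5 arrays from their group means had a median r of 0.167 (0.0172 to 0.291), against −0.0545 for different numbers. A gene is represented by its probe of highest mean signal, and names come from the annotation tables supplied with the files (7323 of 7847 RefSeq identifiers matched). For groups not well above background, a fold is a lower bound, the mean of the brighter group over that of the lowest signal above background, after Aquantile normalization. The larval channel alone was quantile normalized. P-values rest on the spread of pair differences pooled over the arrays of all 5 days (median of 14 residual degrees of freedom), and the number of arrays limits the precision.

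The comparison, the 52 gene lists and the 14 marker lists were chosen with earlier results of these data known, so counts over lists are descriptions without a test. Named genes are the 15 greatest rises and falls with the same sign in 4 pairs, up to 4 called members per list or the 2 brightest where none was called, the AHR pathway list, *cyp1a* and *pfkm*, the 8 greatest differences from days 1 to 4 in each direction, and the cell type markers. Of the 227 genes this rule gives, the text names 131, and *mtf1* was added after its values were seen. The alternatives are given in the closing section. The analysis was tested on simulated data. Python 3.11.15, numpy 2.4.6, pandas 2.3.3 and scipy 1.17.1 were used for the rest.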

Additional observations from a re-analysis of the deposited data

Results flagged for a closer look

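The log2 ratios of 1 array lay far from the other 3 of its group (a gap to its neighbour, as a share of the group's range, over Dixon's critical value) in 23 of 261 groups of 4 arrays tested over the genes named above, and chance flags about 1 in 20 such groups. On the TCDD array of replicate 2 these were *agt* (gap ratio 0.895, value 6.98), *aldh3b1* (0.921, 1.62), *fkbp5* (0.855, −1.60), *hk2* (0.93, −2.99), *ldhbb* (0.956, 4.33) and *or42e3* (1, 2.12). Other TCDD arrays set apart were that of replicate 1 for *coro1a* (0.904, 4.62) and *irx5b* (0.833, 3.40), that of replicate 3 for *myl7* (0.864, 4.1) and *pfkmb* (1, −0.00051), and that of replicate 4 for *amy2a* (0.831, 5.05) and *fhl5* (0.891, 0.01). Among DMSO arrays, replicate 1 stood apart for *wu:fc48h01* (0.915, 3.44), replicate 2 for *mcl1b* (0.925, −0.17) and *rbp4* (0.972, 6.02), replicate 3 for *c8a* (0.835, 5.26), *esr1* (0.845, 0.18), *fhl5* (0.851, 5.86), *gmnn* (0.851, 2.2), *sult2st1* (0.911, 0.95) and *zgc:63863* (0.88, 3.88), and replicate 4 for *fkbp5* (0.867, −3.31) and *foxq1b* (0.959, −0.60).

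The TCDD effect on day 5 differed from the mean effect of days 1 to 4 (limma contrast, adjusted p under 0.05) in 37 of the genes named above. The differences over 1.5 on the log2 scale were 4.68 for *zgc:76926* (a fitted value, since no DMSO array of day 5 was above background), 3.54 for *timp2b*, 3.38 for *mmp9*, 2.57 for *socs3a*, 2.25 for *fkbp5*, 2.09 for *mbl2*, 2.07 for *cyp7a1*, 2.00 for *socs3b*, 1.82 for *ms4a17a.5*, 1.82 for *junba*, 1.80 for *agt* and 1.51 for *cebpb*. Smaller positive differences were found for *fosab* (1.35), *mcl1b* (1.3), *slc25a25a* (1.21), *cldni* (0.92), *cyp26a1* (0.91), *anxa2a* (0.89), *trib3* (0.86), *cnn2* (0.86), *anxa1b* (0.85), *lcp1* (0.82), *aanat2* (0.77), *tagln2* (0.74), *hsp90b1* (0.68), *cyp51* (0.67), *alas1* (0.65), *sult2st1* (0.59) and *wif1* (0.48). Negative differences were −2.68 for *pnp6*, −2.15 for *or42e3*, −1.37 for *ak5*, −0.62 for *fkbp11*, −0.61 for *mdh1b*, −0.54 for *pbldp*, −0.50 for *nr2f2* and −0.48 for *chek1*. No difference was called without pair 1 or without pair 3, and 1 probe was called without pair 4.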

How the results depend on the processing

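In the deposited scaling, 1075 probes were called higher, 862 lower and 171 with a day 5 effect unlike that of days 1 to 4, as were 107 named genes and 256 members of the gene lists. Leaving out 1 replicate number in turn, on all 5 days, gave 233 to 788 higher and 244 to 542 lower. Those fits called 0 to 201 differences between days, 52 to 93 named genes and 76 to 222 list members. The 8 arrays alone gave 1 probe higher, 0 lower, 1 named gene and 1 list member with the replicate block, and 2, 0, 2 and 1 without it. Without the replicate block, 783 were higher and 565 lower, and all other counts stayed within 1.5 times. Scaling between arrays (Aquantile and scale) gave 579 higher, 466 lower, 58 differences between days and 154 list members. Differences between days numbered 307 with the experiment as an additive block, 496 with normexp and loess, 417 in the larval channel, 361 over probes well above background, 53 with array weights, 1207 at an unadjusted p under 0.01 and, in 2 alternatives chosen after seeing the data, 28 with block and scan batch and 436 over probes with both channels above background. *aqp10a* turned to 0.10 with normexp and loess, and *mbl2* to −0.059 in the larval channel; the cause was not tested. No other named gene that was called changed direction. Signal over background limits the falls, since 13 of the 15 greatest had a reference not well above background on all 8 arrays. In simulated data of these arrays, 100 of 20606 probes were changed by each size. There, 58% of changes of 1 and 35% of 0.5 on the log2 scale were recovered, with 5 false calls. The changed share was smaller than the 9.01% of probes called in the data. The noise was drawn independently for each probe and array, with the same spread on all days and no effect on days 1 to 4. These rates thus need not hold for the data, and they do not test whether a spread pooled over days suits day 5.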

Other observations

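Genes were also grouped by normal development, from the DMSO arrays of days 3 and 4. These arrays give none of the day 5 change, but they enter the spread behind its calls. Group and call are thus not independent, and the shares of calls below are a description only. Of 668 genes higher on day 4 than on day 3 in DMSO, 101 were called higher and 23 lower in TCDD on day 5, against 6.7% and 3.9% of all genes. Of 845 genes lower on day 4, 63 were called higher and 75 lower. The medians were close to 0 in both groups, 0.04 and −0.03. Of the 192 genes at least 2-fold higher on day 4, 13 were called higher and 11 lower, and the medians by pair were −0.01, 0.10, −0.04 and −0.50.

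Of the solute carriers, 14 of 143 were called higher and 9 lower, near the 6.7% and 3.9% of all genes, with 8, 10, 3 and 1 higher and 4, 7, 5 and 2 lower as pairs 1 to 4 were left out in turn. Ubiquitin and protein turnover genes had 8 of 96 higher, also near the share of all genes, and 1 lower, with 4, 8, 1 and 0 higher as the pairs were left out. Proteasome subunits had 7 of 40 higher and 1 lower (6 higher without pair 1, 13 without pair 2, 3 without pair 3 and 2 without pair 4). Hox cluster genes had 0 of 43 higher and 2 lower (0 lower without pair 1, 3 or 4), and somite and myogenic regulators 4 of 35 higher (2 without pair 4) and 2 lower (0 without pair 1, 3 or 4).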
